A study of Mus musculus with 22 samples.

Results

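The mitosis genes are a list of 40 genes whose products enter, drive and complete cell division, in 6 classes: cyclins and kinases, kinetochore, spindle, cytokinesis and chromosomal passenger, anaphase promoting complex and anaphase, and chromosome. Of these 40 genes, 39 could be measured among the 18194 genes of the arrays, and all 39 were variable enough to be tested. Ccnb1, which encodes cyclin B1, was not analysed here. Each gene was represented by the probe set annotated to it alone whose log2 signal varied most (largest interquartile range) over the arrays. Membership is set by name, and the probe set of a gene by its spread over these arrays.

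Colonic tissue was profiled on 22 Affymetrix arrays. VC- mice (PPAR γ fl/fl, Villin Cre-) keep PPAR γ in the intestinal epithelium. VC+ mice (PPAR γ fl/fl, Villin Cre+) carry a recombinase driven by the Villin promoter, which deletes the floxed gene in intestinal epithelial cells and not in the other cells of the tissue. Both genotypes carry the floxed alleles, came from a mixed FVB/C57BL/6J or a C57BL/6J background (both are described for the study, and which was put on the arrays is not given in the sources used here), and were given dextran sodium sulfate (DSS), a polymer that injures the colonic epithelium, at 2.5% in the drinking water. There were 3, 3 and 4 arrays of VC- mice at days 0, 2 and 7, and 3, 5 and 4 arrays of VC+ mice, day 0 being without DSS. Ages of the mice are not given in the sources used here. The labels do not say that each array is a separate mouse, so p-values measure only the spread between these samples.

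In mitosis, cyclin B bound to Cdk1 starts entry, kinetochores join chromosomes to the spindle, a checkpoint holds anaphase until every chromosome is attached, and the anaphase promoting complex then marks cyclin B and securin for destruction before the cell is cleaved. Transcripts of these genes rise together in the G2 and M phases and are low in resting cells. In the colon, dividing cells lie in the lower crypt, and loss and regrowth of this zone are well known features of DSS injury. Promoters of late cell cycle genes often hold a CHR element, TTTGAA or a close variant, together with CCAAT boxes, the first read by the DREAM and MuvB complexes and the second by NF-Y.

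Promoters of the gene with the highest mean log2 signal in each class, by the probe sets used, are shown, because the 39 genes moved together over the arrays and these letters are what late cell cycle promoters share. Other probe sets of Cdc20 and Kif11 had higher means (9.98 and 7.64) than those of Ube2c and Nusap1 (8.75 and 7.22) in their classes. The sequences come from RefSeq (GRCm38.p6) and run 5′ to 3′ on the gene's own strand, from 130 bases before to 30 bases after the annotated start. Capitals mark TTTGAA and CCAAT on either strand, so that TTCAAA and ATTGG are the same motifs read on the other strand. The windows are chr9:70421525-70421684 on the minus strand for Ccnb2, chr6:66535091-66535250 on the plus strand for Mad2l1, chr2:119618168-119618327 on the plus strand for Nusap1, chr3:27153849-27154008 on the minus strand for Ect2 (the first of 2 annotated starts), chr2:164769799-164769958 on the plus strand for Ube2c, and chr7:135716350-135716509 on the minus strand for Mki67.
Ccnb2: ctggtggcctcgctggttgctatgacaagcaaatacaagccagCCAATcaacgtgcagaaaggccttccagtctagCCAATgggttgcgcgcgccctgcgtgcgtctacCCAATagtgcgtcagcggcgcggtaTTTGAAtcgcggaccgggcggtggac
Mad2l1: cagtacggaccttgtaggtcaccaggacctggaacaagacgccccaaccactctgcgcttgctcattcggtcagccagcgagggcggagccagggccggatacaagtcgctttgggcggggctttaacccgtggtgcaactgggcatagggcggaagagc
Nusap1: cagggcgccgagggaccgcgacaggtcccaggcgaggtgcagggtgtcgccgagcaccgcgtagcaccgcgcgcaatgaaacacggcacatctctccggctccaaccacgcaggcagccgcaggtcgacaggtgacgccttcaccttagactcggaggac
Ect2: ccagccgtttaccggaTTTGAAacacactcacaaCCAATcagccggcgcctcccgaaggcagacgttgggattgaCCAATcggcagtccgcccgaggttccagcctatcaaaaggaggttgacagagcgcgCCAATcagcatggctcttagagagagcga
Ube2c: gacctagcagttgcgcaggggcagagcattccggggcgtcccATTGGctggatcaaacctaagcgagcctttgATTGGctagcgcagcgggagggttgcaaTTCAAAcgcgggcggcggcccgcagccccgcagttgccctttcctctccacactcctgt
Mki67: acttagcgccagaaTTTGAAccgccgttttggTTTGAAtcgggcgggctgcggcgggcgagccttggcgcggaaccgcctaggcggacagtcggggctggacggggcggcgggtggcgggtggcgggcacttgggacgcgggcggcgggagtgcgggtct

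Counting back from the start, with -1 the last base before it, Ccnb2 held CCAAT at -87, -54 and -21 and TTTGAA at position 5 after the start. Ect2 held TTTGAA at -114 with CCAAT at -96, -55 and 2. Ube2c held TTTGAA at -29 and CCAAT at -88 and -57, all on the opposite strand, and Mki67 held TTTGAA at -116 and -98. The windows of Mad2l1 and Nusap1 held neither motif, although both genes followed the others over the arrays. The table of promoters held 33 of the 39 genes in 35 windows of 300 bases, from 250 before to 50 after the start. On either strand, TTTGAA lay in 27 of these 35 windows (77.1%) and in 17.9% of all 32851 windows of that length, and CCAAT lay in 27 (77.1%) and in 37.4% of all. Both motifs were present in 24 windows (68.6%), against 6.95% of all windows. The variant TTTAAA lay in 8 windows (22.9%, against 13.2% of all), and the motif TTTGGCGC, a form of the site read by E2F factors, in 0 (against 0.514%). A match is a description of the letters and shows no binding.

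The mean of the 39 genes was high on all 6 arrays without DSS and differed widely between arrays of the same group under DSS. Their mean was taken on each array after each gene was set to its own mean over the 22 arrays. It was 0.71, 0.75 and 1.02 (log2) in VC- mice at day 0 and 0.45, 0.49 and 0.58 in VC+ mice at day 0. At day 2 it was -0.26, -0.71 and 0.78 in VC- mice and -1.30, -1.55, -0.48, -0.34 and -0.39 in VC+ mice. All 5 VC+ arrays of day 2 lay below every array of day 0, whereas replicate 3 of VC- day 2 lay among the day 0 arrays of its genotype. At day 7 it was 1.24, -2.04, -2.19 and -0.73 in VC- mice and 1.68, 1.23, -0.31 and 1.35 in VC+ mice. Thus 1 of 4 VC- arrays and 3 of 4 VC+ arrays were above all day 0 arrays at day 7, while the other 3 VC- arrays and the other VC+ array were below all of them. The SD between arrays was 0.17 and 0.07 at day 0, 0.76 and 0.57 at day 2, and 1.59 and 0.89 at day 7, in VC- and VC+ mice respectively.

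**Figure D1:**
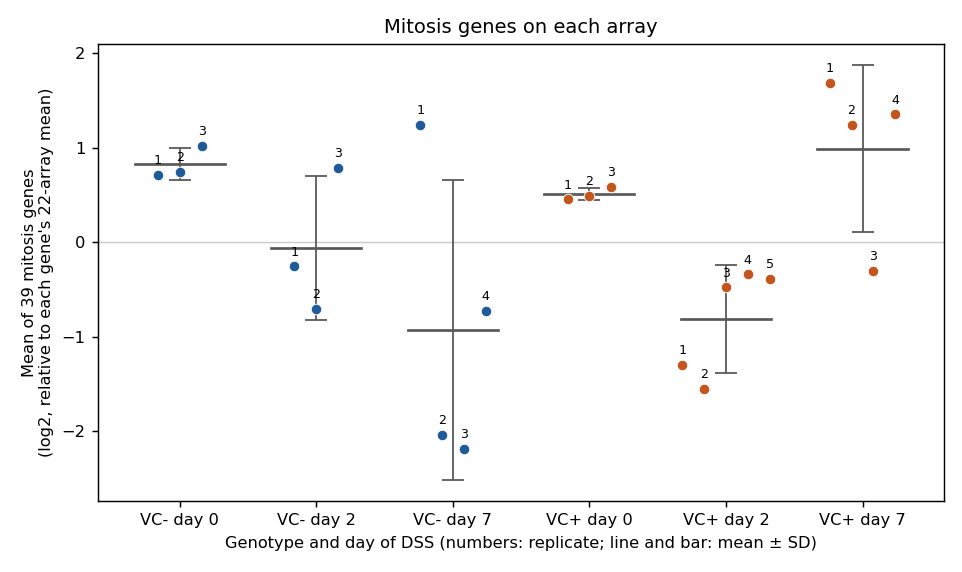
Mean of the 39 mitosis genes on each of the 22 arrays (log2, each gene relative to its mean over the arrays), by genotype and day of DSS, with the replicate number at each point and the group mean ± SD. The day 7 groups split, with VC- replicate 1 at 1.24 against -0.73 or lower for the others, and VC+ replicate 3 at -0.31 against 1.23 or higher for the others.

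The genes moved as a block. The correlation of a gene with the mean of the other 38 mitosis genes over the 22 arrays had a median of 0.955, from 0.771 (Cenpe) to 0.989, and after removing group means it had a median of 0.930. Over the 9058 other genes tested, the median correlation with the mean of the mitosis genes was 0.029, and 48 reached 0.9. The 22 arrays share their preparation and normalization, and these values are descriptions. The 39 genes are therefore not 39 separate observations, and a count of genes below is mostly a statement about arrays. The genes outside the list closest to its mean were Shcbp1 (0.980), Cep55 (0.971), Cdca5 (0.967), Ncapg (0.966) and Esco2 (0.964). Of the 39 genes, 26 had their highest value on VC+ day 7 replicate 1, 8 on VC+ day 7 replicate 4, 2 on VC+ day 7 replicate 2 and 3 on VC- day 0 replicate 3. The lowest value fell on VC- day 7 replicate 3 for 23 genes, on VC- day 7 replicate 2 for 11 and on VC+ day 2 replicate 2 for 5.

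**Figure D2:**
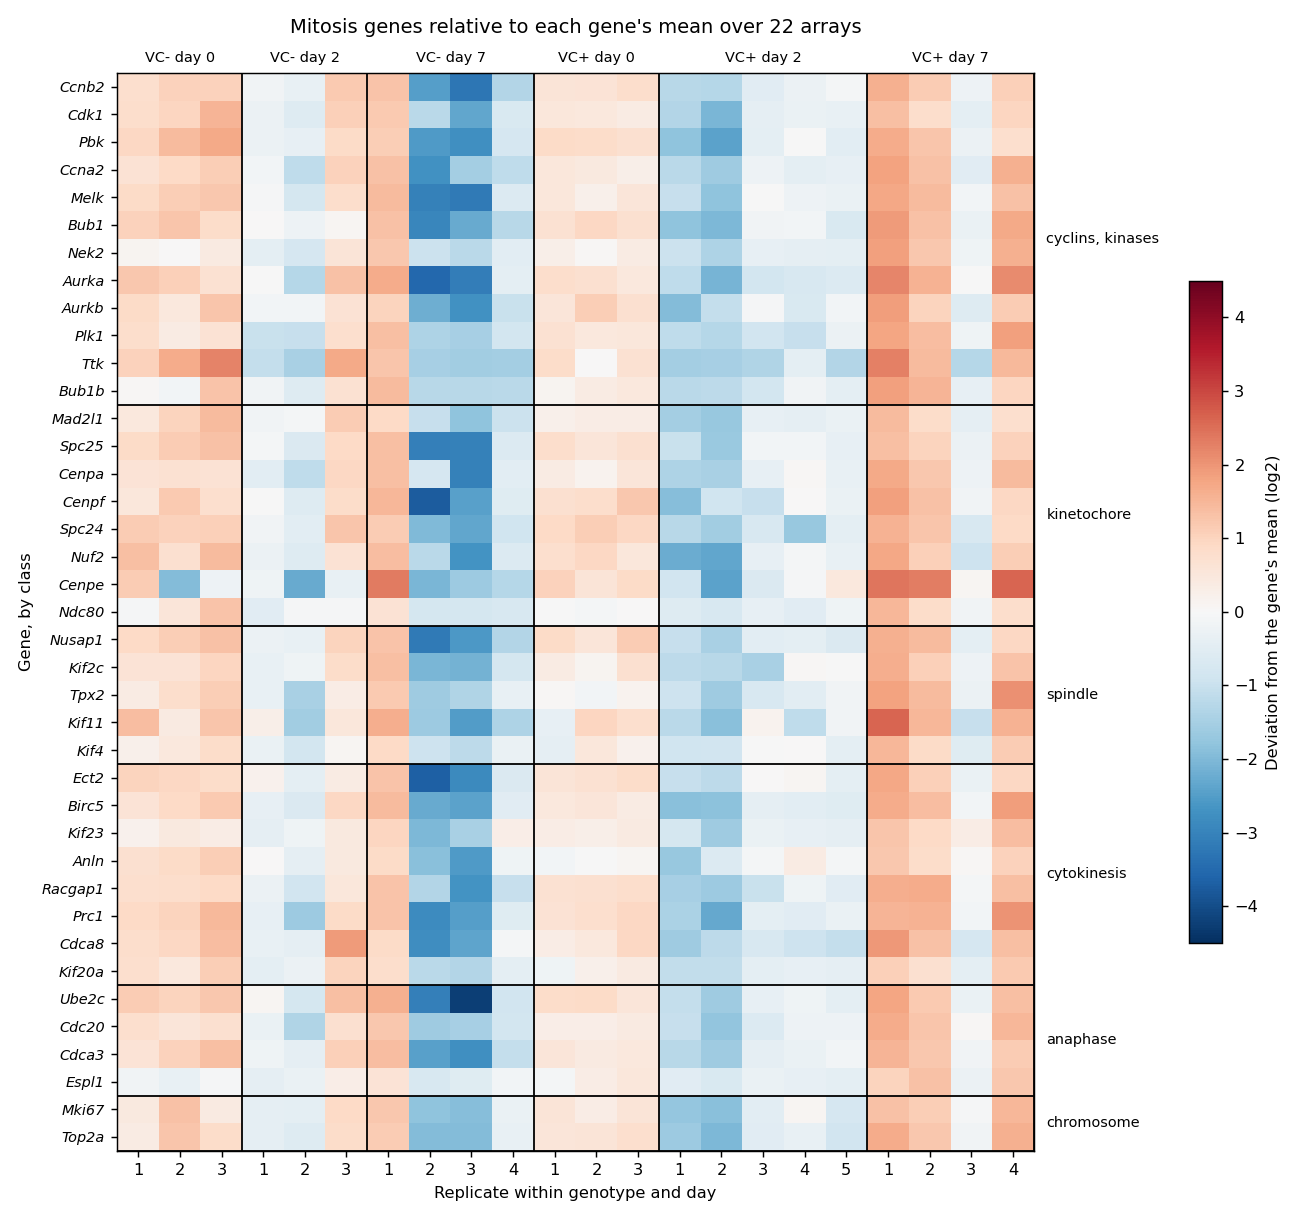
Deviation of each of the 39 mitosis genes (rows, by class and falling mean signal) from its own mean over 22 arrays (columns, by group and replicate), in log2 units from blue (below) to red (above). Whole columns share a colour across classes, as in VC- day 7, where 39 of 39 genes were above their mean on replicate 1 and 0 of 39 on replicates 2 and 3. The probe set used for Cenpe, with the lowest correlation with the other genes (0.771), departs from its columns most, whereas another probe set of Cenpe correlated at 0.956.

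Probe sets and annotation limit some genes. Of 78 probe sets annotated to the 39 genes alone, 39 were used. Of the other 39, 23 stayed below a log2 signal of 4 on every array, and of the 16 others 13 correlated above 0.8 with the mean of the other mitosis genes, the lowest at 0.714. Ttk, Bub1b, Ndc80, Aurka, Cenpf, Kif11 and Cdca8 had values under a log2 signal of 3 on 1 or more arrays, a range in which probe sets with little or no transcript lie, so their differences may be understated. For Bub1b, Kif11 and Cdca8 this may be a property of the probe sets used, since others had higher means (5.03, 5.52 and 7.64, and 6.96 and 7.73). Other probe sets of Ttk, Aurka and Cenpf had lower means (2.74, 2.26, and 1.94 and 2.72), and Ndc80 had 1 probe set. For Cenpe, the probe set used correlated at 0.771 with the mean of the other mitosis genes. Another Cenpe probe set, of mean 6.50, correlated at 0.956.

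Some properties of whole arrays bear on the values that follow. Pparg, the targeted gene, had log2 signals of 9.58 to 9.63 on VC- and 8.50 to 8.83 on VC+ arrays at day 0, and of 9.87 to 10.96 and 6.87 to 9.54 at day 2. At day 7 it had 9.82, 7.39, 8.38 and 8.57 on the VC- arrays and 10.35, 10.08, 8.54 and 6.26 on those labelled VC+, so it did not separate the genotypes there. Whether its probe set lies in the deleted part is not given in the sources used here, and other cells of the tissue also express the gene. Genotypes at day 7 are therefore given as labelled. Prss2, made by the pancreas, was above a log2 signal of 8 on 3 arrays (VC- day 0 replicate 3, VC- day 7 replicate 2 and VC+ day 7 replicate 4). Hoxb13, a marker of the distal colon, ranged from 2.86 to 12.4 and stood at both ends within VC+ day 0 and VC+ day 2. In VC- mice it went with the day, at 7.29, 9.13 and 9.67 on day 0 and 3.08, 2.95 and 2.88 on day 2. On VC- day 7 it was 3.81, 2.86, 3.03 and 9.62. Xist passed 8 on 6 arrays, all of them from the first 2 time points. None of the 12 colonocyte and 10 goblet cell markers stayed below a log2 signal of 3 on every array. The same held for the 7 pancreas and 9 neutrophil markers, so this does not show the presence of a cell type on each array.

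Cyclins and kinases include the switch that starts mitosis. Ccnb2, cyclin B2, had log2 signals of 9.05, 9.33 and 9.30 at day 0, 8.14, 7.94 and 9.46 at day 2 and 9.58, 5.80, 5.02 and 6.95 at day 7 in VC- mice. In VC+ mice it had 8.85, 8.90 and 9.08 at day 0, 7.03, 6.99, 7.78, 8.01 and 8.21 at day 2 and 9.86, 9.43, 8.06 and 9.35 at day 7. All VC+ values of day 2 were below those of day 0, and the day 7 values spread to both sides of day 0 in both genotypes. Cdk1, the kinase that cyclin B activates, had 8.92, 9.11 and 9.67, then 7.89, 7.56 and 9.22, then 9.31, 6.92, 5.81 and 7.44 in VC- mice on the 3 days. In VC+ mice Cdk1 had 8.63, 8.63 and 8.49, then 6.81, 6.08, 7.74, 7.84 and 7.79, then 9.48, 8.93, 7.68 and 9.10. The same arrays were low for Cdk1 as for its cyclin.

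Mad2l1, the checkpoint protein Mad2 and the kinetochore gene with the highest signal, had 9.79, 10.29 and 10.73 at day 0, 9.16, 9.20 and 10.43 at day 2 and 10.18, 8.25, 7.50 and 8.35 at day 7 in VC- mice. In VC+ mice it had 9.52, 9.64 and 9.63, then 7.77, 7.59, 8.93, 8.88 and 8.999, then 10.72, 10.12, 8.88 and 10.04. Its VC+ values of day 0 were all below the VC- values of day 0, and its values of day 2 were also all lower in VC+ mice. Nusap1, which bundles spindle microtubules, had 8.13, 8.32 and 8.54, then 6.97, 6.88 and 8.22, then 8.51, 4.03, 4.62 and 5.91 in VC- mice. In VC+ mice Nusap1 had 8.08, 7.76 and 8.36, then 6.17, 5.77, 6.75, 6.79 and 6.58, then 8.80, 8.65, 6.79 and 8.17. At day 7, VC- replicate 1 alone lay at the day 0 level of its genotype and VC+ replicate 3 alone at the day 2 level.

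Ect2, the exchange factor that activates RhoA to cleave the cell, had 9.88, 9.80 and 9.70, then 9.06, 8.42 and 9.25, then 10.15, 5.20, 6.01 and 8.21 in VC- mice. In VC+ mice Ect2 had 9.46, 9.55 and 9.69, then 7.85, 7.70, 8.89, 8.95 and 8.43, then 10.60, 9.93, 8.58 and 9.80. All its day 2 values were below those of day 0 in both genotypes. Ube2c, the ubiquitin-conjugating enzyme of the anaphase promoting complex, had the widest range of the 39 genes, 6.00 log2 units. It had 9.88, 9.76 and 9.96, then 8.84, 7.95 and 10.11, then 10.34, 5.68, 4.52 and 7.89 in VC- mice. In VC+ mice Ube2c had 9.59, 9.62 and 9.29, then 7.69, 7.16, 8.39, 8.55 and 8.30, then 10.52, 9.93, 8.45 and 10.12. Mki67, which coats mitotic chromosomes and is the usual marker of dividing cells, had 9.95, 10.81 and 9.90, then 9.10, 9.04 and 10.39, then 10.71, 7.68, 7.57 and 9.20 in VC- mice. In VC+ mice Mki67 had 10.09, 9.84 and 10.06, then 7.75, 7.62, 9.01, 9.57 and 8.75, then 10.81, 10.60, 9.44 and 10.98. Both genes had the low VC- replicates 2 and 3 and the high VC- replicate 1 of day 7 in common with the other classes.

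**Figure D3:**
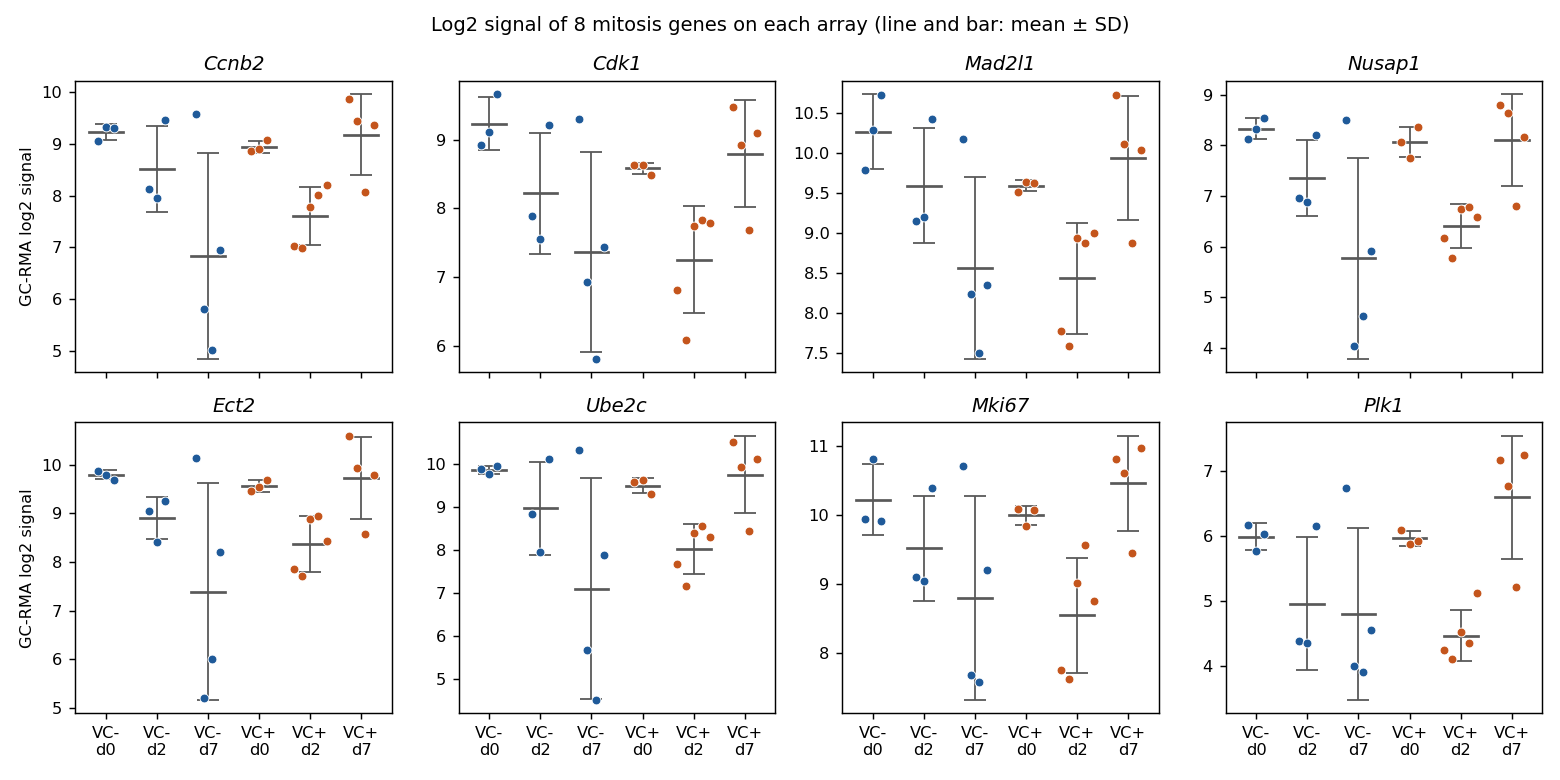
GC-RMA log2 signal of 8 mitosis genes on each array, by genotype and day (d0, d2, d7), with the group mean ± SD; each panel has its own axis, which does not start at 0. In all 8 genes VC- replicates 2 and 3 of day 7 lie far below VC- replicate 1, and 3 of 4 VC+ arrays of day 7 lie high.

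At day 2 of DSS the mitosis genes were lower than at day 0 in both genotypes by their medians. No single gene passed the test in the model of all 6 groups. In VC+ mice the median log2 difference over the 39 genes was -1.34 (2.54-fold lower), against -0.02 over all genes tested, and all 39 were negative, from -0.41 (Anln) to -2.13 (Spc24, SE 0.63). Limma called 0 of the 39, while 0.055% of all genes tested were called in this comparison. That model shares 1 estimate of the spread per gene over all groups, and the mean of the mitosis genes spread most at day 7. A model of the VC+ day 0 and day 2 arrays alone called 4 of the 39, and array weights gave 21. The count of 0 therefore depends on the shared spread. At an unadjusted p under 0.05, 18 were lower (4.07% of all genes tested), and the lowest adjusted p was 0.428 (Spc24). For 36 of the 39, all but Anln, Kif11 and Kif4, each of the 5 arrays of day 2 was below each of the 3 arrays of day 0, which held in this direction for 6.27% of all genes tested. Fewer dividing cells and less of these transcripts per cell cannot be told apart in RNA of whole tissue. The class medians ran from -1.16 in the anaphase class to -1.58 in the chromosome class. Mki67 differed by -1.46 (SE 0.61, adjusted p = 0.702) and Cdk1 by -1.33 (SE 0.61, adjusted p = 0.748).

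In VC- mice at day 2 the median was -0.88 (1.84-fold lower), with 38 of 39 differences negative. Hoxb13 was 7.29 to 9.67 on the VC- arrays of day 0 and 2.88 to 3.08 on those of day 2. The part of position along the colon in this difference was not tested. Limma called 0 of 39 (0.011% of all genes tested were called), with 1 gene lower at an unadjusted p under 0.05 (2.48% of all). Each day 2 array lay below each day 0 array for 10 genes (6.61% of all genes tested in this direction), namely Anln, Bub1, Ect2, Kif4, Melk, Nuf2, Pbk, Prc1, Racgap1 and Tpx2. In the other 29 genes VC- day 2 replicate 3 overlapped day 0, and in Cenpe, Espl1 and Ndc80 another array of day 2 did as well. The VC+ response minus the VC- response at day 2 had a median of -0.55 over the 39 genes. Limma called 0 (0.022% of all genes tested) and 0 had an unadjusted p under 0.05 (6.46% of all), so a difference between genotypes in the day 2 response was not detectable with these numbers of arrays.

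Beside the lower mitosis signal of VC+ mice at day 2, Ascl2, the transcription factor of crypt base stem cells, fell by 2.60 (SE 0.40, adjusted p = 0.0146), and Axin2, a target of Wnt signaling, by 1.86 (SE 0.27, adjusted p = 0.0132). These, with Ephb3, were 3 of 16 tested crypt base and Wnt target genes that fell (0.044% of all genes tested were called lower), and they were named after their values were seen. The mean of the 19 measured was 0.44 on VC+ day 0 and -0.36 on VC+ day 2. The log2 of their summed level overlapped, at 13.20 to 13.93 and 12.67 to 14.40. Without VC+ day 0 replicate 2 neither Ascl2 nor Axin2 passed (adjusted p = 0.324 and 0.177), nor without VC+ day 2 replicate 5 (adjusted p = 0.0511 for both). The 10 smooth muscle markers had a median difference of 0.90 with 0 passing the test, and the log2 of their summed level was 14.64 to 15.26 on VC+ day 0 and 15.24 to 16.02 on VC+ day 2. On VC- day 0 the summed level was 15.24 to 15.77, as in VC+ day 2, with the mitosis genes at 0.71 to 1.02. Of the 12 colonocyte markers 11 were tested and 0 passed, with a median difference of 0.17. Of the 5 VC+ arrays of day 2, replicate 2 was low for Hoxb13 (3.07) and the others were high (9.45 to 12.4), and the mitosis genes were below their day 0 level on both kinds. At day 0, where Hoxb13 was 12.4 on VC+ replicate 1 and 3.09 and 2.88 on the others, the mean of the mitosis genes was 0.45 on the first and 0.49 and 0.58 on the others. The part of muscle and of the position sampled along the colon in these differences was not tested.

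At day 7 the mitosis genes of VC- mice had a median log2 difference from day 0 of -1.87 (3.64-fold lower), against -0.09 over all genes tested, and all 39 were negative, from -0.02 (Espl1, separase) to -2.76 (Ube2c). Limma called 7 of the 39 as lower and none as higher, where 5.06% of all genes tested were called lower and 10.6% in either direction. At an unadjusted p under 0.05, 31 were lower (17.6% of all genes tested). No gene had groups that did not overlap (0 of 39, against 12.3% of all genes tested in this direction), because replicate 1 overlapped the day 0 arrays in all of them.

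The 7 genes that fell belong to 4 classes. Nusap1, with the values given above, had the lowest adjusted p (log2 difference -2.57, SE 0.73, adjusted p = 0.0361). Ccnb2 differed by -2.39 (SE 0.72, adjusted p = 0.0429). Both were near or above their day 0 level on replicate 1. Pbk, a kinase active in mitotic cells, had 8.67, 9.18 and 9.44 at day 0 and 8.87, 5.20, 4.99 and 6.98 at day 7 (difference -2.58, SE 0.74, adjusted p = 0.0374). Bub1, the checkpoint kinase, had 7.54, 7.75 and 7.30 at day 0 and 7.80, 3.55, 4.21 and 5.23 at day 7 (-2.33, SE 0.73, adjusted p = 0.0484). For Pbk and Bub1 alike, replicate 1 lay among or above the day 0 arrays and the other replicates far below them.

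Spc24 and Spc25 are partners in the Ndc80 complex, which holds the microtubule at the kinetochore. Spc25 had 8.30, 8.59 and 8.77 at day 0 and 8.79, 4.35, 4.39 and 6.82 at day 7 (-2.47, SE 0.77, adjusted p = 0.047). Spc24 had 7.71, 7.58 and 7.61 at day 0 and 7.70, 4.55, 4.21 and 5.67 at day 7 (-2.10, SE 0.65, adjusted p = 0.0472). The other 2 subunits, Nuf2 and Ndc80, had differences of -1.96 (adjusted p = 0.097) and -1.003 (adjusted p = 0.0822), the latter with day 7 signals of 3.92, 2.51, 2.48 and 2.56, near the background. Cdca3, a trigger of mitotic entry that the anaphase promoting complex destroys, had 9.05, 9.44 and 9.77 at day 0 and 9.81, 5.97, 5.64 and 7.34 at day 7 (-2.23, SE 0.71, adjusted p = 0.0499). Just outside the threshold were Mad2l1 (-1.70, adjusted p = 0.0508), Ect2 (-2.40, adjusted p = 0.052), Anln, the scaffold of the contractile ring (-1.84, adjusted p = 0.0532), Ttk (-2.49, adjusted p = 0.0541), Aurkb (-2.10, adjusted p = 0.0543), Ube2c (-2.76, adjusted p = 0.0551) and Melk (-2.42, adjusted p = 0.0556). The threshold therefore split a nearly continuous set of values, and the class medians, from -1.51 (chromosome) to -2.22 (cyclins and kinases), were similar.

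These 7 calls, with adjusted p-values of 0.0361 to 0.0499 near the threshold, changed when single arrays were left out. With VC- day 7 replicate 1 left out, 36 of 39 genes were called lower and the median difference was -2.62, and with any one of the 3 VC- day 0 arrays or of the other 3 VC- day 7 arrays left out, 0 were. The count was 2 to 4 when any of 11 other arrays was left out (VC- day 2 replicate 1, each VC+ array of day 0, all VC+ arrays of day 2 but replicate 2, and all of day 7 but replicate 3), which enter only through the shared estimate of the spread. Beside the 7 genes that fell, 14 of the 18 macrophage and monocyte markers rose (summed log2 level 12.37 to 12.59 at day 0 and 13.24 to 15.94 at day 7). Of the 9 neutrophil markers 3 were tested and 2 of them rose (6.67 to 6.72 and 9.71 to 16.29). The 12 colonocyte markers went from 16.58 to 16.81 at day 0 to 14.39 to 16.82 at day 7 with 1 of 11 tested falling, and the 10 goblet cell markers from 17.55 to 17.86 to 14.95 to 17.96 with 0 of 9. Of all genes tested, 5.53% were called higher and 5.06% lower in this comparison. On replicate 2 the colonocyte and goblet cell lists were 2.72 and 4.20 below their mean over the 22 arrays, and on replicate 3, with the mitosis genes as low, they were 0.17 and 0.30 below it. Smooth muscle markers were at -0.97 on replicate 2 and 0.26 on replicate 3, and replicate 2 was also one of the arrays with Prss2 above 8. The part of these cells in the lower mitosis signal was not tested. With the 3 arrays of high Prss2 left out, with Hoxb13 as a covariate, or with only arrays without Xist, 0 of the 39 were called. A model of the VC- day 0 and day 7 arrays alone, which takes no spread from the other groups, also called 0. Array weights gave 32.

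In VC+ mice the mitosis genes at day 7 had a median above that of day 0, and no gene passed the test. The median log2 difference was 0.47 (1.39-fold higher), with 38 of 39 positive, from -0.24 (Spc24) to 1.24 (Tpx2). Limma called 0 of 39 (1.75% of all genes tested were called) and 0 had an unadjusted p under 0.05 (13.7% of all), the lowest adjusted p being 0.374 (Tpx2). Replicates 1, 2 and 4 were above day 0 and replicate 3 below it for the mean of the genes, so no gene had groups that did not overlap (9.61% of all genes tested did in the higher direction). Over the same comparison 4 of 16 tested crypt base and Wnt target genes fell (0.429% of all genes tested were called lower). These were Tnfrsf19 (-2.85, SE 0.52, adjusted p = 0.0072), Ascl2 (-2.09, SE 0.42, adjusted p = 0.0136), Axin2 (-1.36, SE 0.28, adjusted p = 0.0164) and Ephb3 (-1.02, SE 0.26, adjusted p = 0.0483). The median of the 19 measured was -0.12 with 8 of them positive, and the log2 of their summed level was 13.20 to 13.93 at day 0 and 14.02 to 14.68 at day 7, so the list as a whole did not follow these 4 genes. Ascl2 and Axin2, the only ones of the 4 followed in this way, failed to pass when VC+ day 0 replicate 2 (adjusted p = 0.0959 and 0.0778) or VC+ day 7 replicate 4 (0.0598 and 0.0692) was left out. Axin2 also failed without VC+ day 0 replicate 3 (0.0873). In VC- mice 5 of the 16 fell, where 5.06% of all genes tested were called lower. Among them were Tnfrsf19, by 2.37 (SE 0.52, adjusted p = 0.0123), and Ascl2, by 2.19 (SE 0.42, adjusted p = 0.0055). The median over the 19 was -0.58 in VC- mice, with a summed level of 13.82 to 13.97 at day 0 and 13.51 to 14.64 at day 7.

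From day 2 to day 7 in VC+ mice 12 mitosis genes, from all 6 classes, rose. The median log2 difference was 1.81 (3.51-fold higher), against 0.01 over all genes tested, and all 39 were positive, from 1.17 (Kif4) to 2.55 (Aurka). Limma called 12 of 39 as higher, where 4.76% of all genes tested were called higher and 7.58% in either direction, and 38 had an unadjusted p under 0.05 (12.9% of all were higher). For 12 genes every day 7 array was above every day 2 array (7.87% of all genes tested in this direction), of which 9 were among the 12 called. This comparison shares its day 2 arrays with that of day 2 and day 0, so the values of the 2 comparisons are not independent.

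Birc5, survivin, the chromosomal passenger that guides Aurora B, had 6.95, 6.96, 8.42, 8.35 and 8.27 at day 2 and 10.48, 10.21, 8.70 and 10.70 at day 7 (difference 2.23, SE 0.63, adjusted p = 0.0379). Top2a, the topoisomerase that untangles chromosomes, had 7.26, 6.89, 8.38, 8.55 and 8.05 at day 2 and 10.56, 10.11, 8.73 and 10.50 at day 7 (2.15, SE 0.56, adjusted p = 0.0266). Plk1, the polo-like kinase, had 4.25, 4.10, 4.52, 4.35 and 5.12 at day 2 and 7.17, 6.78, 5.21 and 7.25 at day 7 (2.13, SE 0.52, adjusted p = 0.0208). In these 3 genes replicate 3 of day 7 was only slightly above the highest day 2 array, and the other day 7 arrays stood well above it. Racgap1 had 5.05, 4.91, 5.53, 6.33 and 6.04 at day 2 and 8.19, 8.19, 6.43 and 7.90 at day 7 (2.11, SE 0.56, adjusted p = 0.0298). Kif23, its partner in the centralspindlin complex of the dividing cell's midzone, had 7.05, 6.24, 7.54, 7.48 and 7.45 at day 2 and 9.11, 8.75, 8.19 and 9.26 at day 7 (1.68, SE 0.46, adjusted p = 0.0329). Both partners had groups that did not overlap.

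Tpx2, which activates Aurora A on the spindle, had 4.51, 3.85, 4.71, 4.96 and 5.30 at day 2 and 7.24, 6.87, 5.19 and 7.49 at day 7 (2.03, SE 0.53, adjusted p = 0.0266). Mki67 differed by 1.92 (SE 0.56, adjusted p = 0.042). In both, replicate 3 of day 7 overlapped the day 2 arrays. Cdc20, which switches on the anaphase promoting complex, had 7.54, 6.80, 7.96, 8.34 and 8.33 at day 2 and 10.24, 9.80, 8.61 and 10.04 at day 7 (1.88, SE 0.52, adjusted p = 0.0333). Nek2, a kinase of centrosome separation, had 5.41, 5.01, 6.02, 6.00 and 5.95 at day 2 and 8.23, 7.63, 6.21 and 8.01 at day 7 (1.84, SE 0.45, adjusted p = 0.0218). Cdc20 and Nek2 had groups that did not overlap. Bub1b, the checkpoint protein BubR1, had 1.75, 1.81, 2.15, 2.82 and 2.52 at day 2 and 4.83, 4.49, 2.61 and 3.95 at day 7 (1.76, SE 0.52, adjusted p = 0.0464), so the signal of the probe set used was at the background at day 2 and the difference may be understated. Espl1 had 4.21, 4.05, 4.41, 4.36 and 4.27 at day 2 and 5.72, 6.04, 4.45 and 5.95 at day 7 (1.28, SE 0.30, adjusted p = 0.0178). Ndc80 had 2.72, 2.56, 2.91, 2.77 and 3.09 at day 2 and 4.78, 4.09, 3.14 and 4.07 at day 7 (1.21, SE 0.33, adjusted p = 0.0317), from a day 2 signal at the background. Neither gene had groups that overlapped, and Espl1 had the lowest adjusted p of the 39. The genes with the largest differences, Aurka (2.55, adjusted p = 0.0565) and Cenpe, the kinetochore motor (2.55, adjusted p = 0.0684), did not pass.

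**Figure D4:**
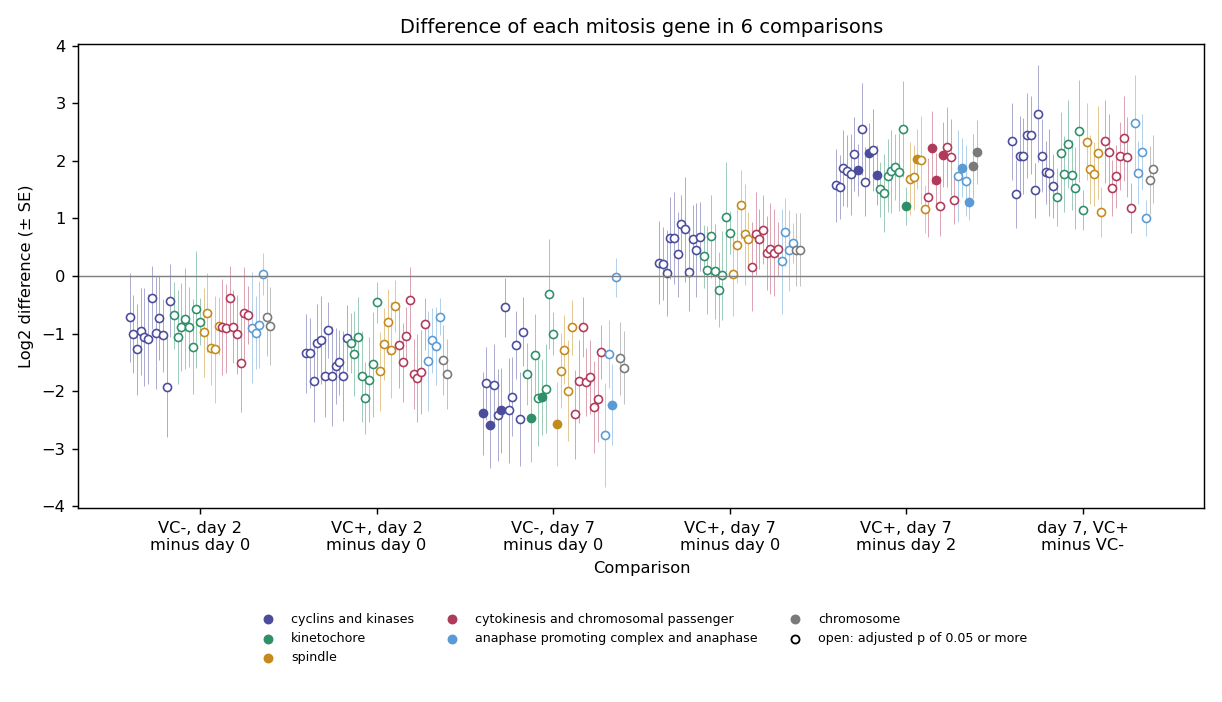
Log2 difference ± SE of each of the 39 mitosis genes in 6 comparisons, coloured by class, with filled points for an adjusted p under 0.05. The medians are -0.88 and -1.34 at day 2, -1.87 and 0.47 at day 7 (VC- and VC+ against day 0), 1.81 from day 2 to day 7 in VC+ mice and 1.86 for VC+ minus VC- at day 7, and the classes lie together.

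The 12 calls also changed when single arrays were left out. Of the VC+ arrays of day 7, leaving out the 1st, 2nd or 4th replicate left 0 genes called, and leaving out the 3rd gave 31. Of those of day 2, leaving out the 1st or 2nd left 3, the 5th 4 and the 3rd 7. The VC- arrays of day 7 enter only through the shared spread, and the count was 34 when their 1st replicate was left out and 24 when their 2nd was. Beside the rise, 9 of the 10 smooth muscle markers fell, with a median difference of -1.88 (summed log2 level 15.24 to 16.02 at day 2 and 13.67 to 15.05 at day 7). On the day 7 arrays the smooth muscle list was at -1.43, -1.29, -0.16 and -1.28, so that replicate 3, low for the mitosis genes, was the one with most smooth muscle signal. Macrophage and monocyte markers rose for 6 of 18 (12.84 to 13.59 and 13.67 to 15.13), and 2 of 3 tested neutrophil markers rose (6.70 to 7.57 and 11.30 to 15.45). Colonocyte markers fell for 0 of 11 tested and goblet cell markers for 1 of 9. Of all genes tested, 4.76% were called higher and 2.83% lower in this comparison. Xist passed 8 on 2 of the 5 VC+ arrays of day 2 and on 0 of the 4 arrays of day 7, and with only arrays without Xist 0 of the 39 were called, with 3 without the arrays of high Prss2 and 4 with Hoxb13 as a covariate. The part of muscle, immune cells and sex in the rise was not tested.

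In VC- mice the day 7 minus day 2 median was -0.85, and limma called 0 of 39 (5.61% of all genes tested were called), with 2 lower at an unadjusted p under 0.05 (14.5% of all genes tested). Without VC- day 7 replicate 1, 20 were called.

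Between genotypes no mitosis gene passed the test on any day. At day 0 the median of VC+ minus VC- was -0.33, limma called 0 of 39 (0.011% of all genes tested), 0 had an unadjusted p under 0.05 (6.6% of all), and for 16 genes (with Mad2l1, Cdk1, Ect2 and Ube2c among them) all VC+ arrays were below all VC- arrays (10.6% of all genes tested in this direction). At day 2 the median was -0.78, limma called 0 (0.044% of all), 2 were lower at an unadjusted p under 0.05 (5.64% of all), and Cdca8, Mad2l1 and Nusap1 had VC+ arrays all below the VC- arrays (4.02% of all genes tested in this direction). Hoxb13 at day 2 was 2.88 to 3.08 on the VC- arrays, 3.07 on VC+ replicate 2 and 9.45 to 12.4 on the other VC+ arrays. The part of position along the colon in this difference was not tested. At day 7 the median of those labelled VC+ minus VC- was 1.86 (3.64-fold higher), against 0.08 over all genes tested, and all 39 were higher, from 1.01 (Espl1) to 2.82 (Aurka). Limma called 0 of 39, and 0.0% of all genes tested, the lowest adjusted p being 0.303. All 39 were higher at an unadjusted p under 0.05, against 7.86% of all genes tested. No gene had groups that did not overlap (0.901% of all in this direction). Beside these values, the smooth muscle markers had a median difference of -0.81, the fibroblast markers -0.94, the macrophage and monocyte markers -0.24 and the colonocyte markers 0.41, with none of them passing the test, and their part was not tested.

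The response of VC+ minus that of VC- mice from day 0 to day 7 had a median of 2.18, from 0.60 (Espl1) to 3.15 (Aurka). Limma called 0 of 39 (0.0% of all genes tested), the lowest adjusted p was 0.5801, and 30 genes were higher at an unadjusted p under 0.05 (5.52% of all). The day 7 arrays decided these values. With VC- day 7 replicate 1 left out, 39 genes were called higher in VC+ mice at day 7 (median 2.60) and 3 in the interaction, and with VC+ day 7 replicate 3 left out 1 was called at day 7. The high VC- array and the low VC+ array were each unlike the rest of their group. Pparg signal was 9.82 on that VC- array and 8.54 on that VC+ array, where the mean of the mitosis genes was 1.24 and -0.31. On VC+ replicates 1, 2 and 4 of day 7 Pparg signal was 10.35, 10.08 and 6.26, with means of 1.68, 1.23 and 1.35. On VC- replicates 2, 3 and 4 of day 7 it was 7.39, 8.38 and 8.57, with means of -2.04, -2.19 and -0.73. A link between Pparg signal and the mitosis genes was not tested.

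Other genes of cell division passed the test in the same comparisons. Of 47 other mitosis genes tested (64 measured), 14 fell in VC- mice from day 0 to day 7, with a median of -1.03 over the 64. In this comparison 5.06% of all genes tested were called lower. The largest falls called were in Kif20b, a kinesin of cytokinesis (-3.04, SE 0.74, adjusted p = 0.0209), Ncapg, a condensin subunit (-2.90, SE 0.74, adjusted p = 0.0256), Cenpk (-2.82, SE 0.60, adjusted p = 0.0106) and Cenpp (-2.52, SE 0.76, adjusted p = 0.042), both of the inner kinetochore. From day 2 to day 7 in VC+ mice 19 of the 47 rose (4.76% of all genes tested were called higher), with a median of 1.21 over the 64. They were led by Kif22, a chromosome-bound kinesin (2.60, SE 0.58, adjusted p = 0.0138), Tacc3, of the spindle (2.43, SE 0.49, adjusted p = 0.00881), Cep55, of abscission (1.99, SE 0.59, adjusted p = 0.0448), and Knl1, of the kinetochore (1.95, SE 0.57, adjusted p = 0.0445).

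Of 41 DNA replication genes tested (43 measured), 15 fell in VC- mice by day 7 (median over the 43, -1.10) and 25 rose in VC+ mice from day 2 to day 7 (median 1.17). The shares of all genes tested were 5.06% called lower and 4.76% called higher in these comparisons, respectively. Among those that fell were Ccne2, cyclin E2 (-2.74, adjusted p = 0.0307), Tk1, thymidine kinase (-2.44, adjusted p = 0.024), Prim1, of primase (-2.37, adjusted p = 0.0175), and Rfc4, of the clamp loader (-2.16, adjusted p = 0.0169). Among those that rose were Rrm2, of ribonucleotide reductase (2.94, adjusted p = 0.0175), Cdc6, which loads the replicative helicase (2.31, adjusted p = 0.0285), Mcm5, a subunit of that helicase (2.26, adjusted p = 0.0246), and Lig1, DNA ligase (2.18, adjusted p = 0.00392). With each array left out in turn, the calls of the other mitosis genes ran from 0 to 36 and from 1 to 37 in these comparisons, and those of the replication genes from 0 to 27 and from 5 to 33. Both counts of 0 came without VC- day 0 replicate 3, the highest in VC- mice without VC- day 7 replicate 1 and the highest in VC+ mice without VC+ day 7 replicate 3. As in the mitosis list, 0 passed in either list between genotypes at day 7, where the medians were 1.23 and 1.05. From day 2 to day 7 in VC- mice 1 other mitosis gene fell, Wee1, the kinase that restrains Cdk1 (-1.89, SE 0.37, adjusted p = 0.011), of 47 tested, and 2 replication genes of 41, Rfc4 and Rpa3, did, where 2.15% of all genes tested were called lower, so the first count was no larger than the background share. The 13 cell cycle inhibitors measured had medians of 0.07 in VC- mice and 0.01 in VC+ mice at day 7 against day 0, and 1 of 12 tested, Ccng1, fell in VC- mice by day 7 (-0.70, SE 0.21, adjusted p = 0.0452). In that comparison 5.06% of all genes tested were called lower, so this single call is near the background share.

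**Figure D5:**
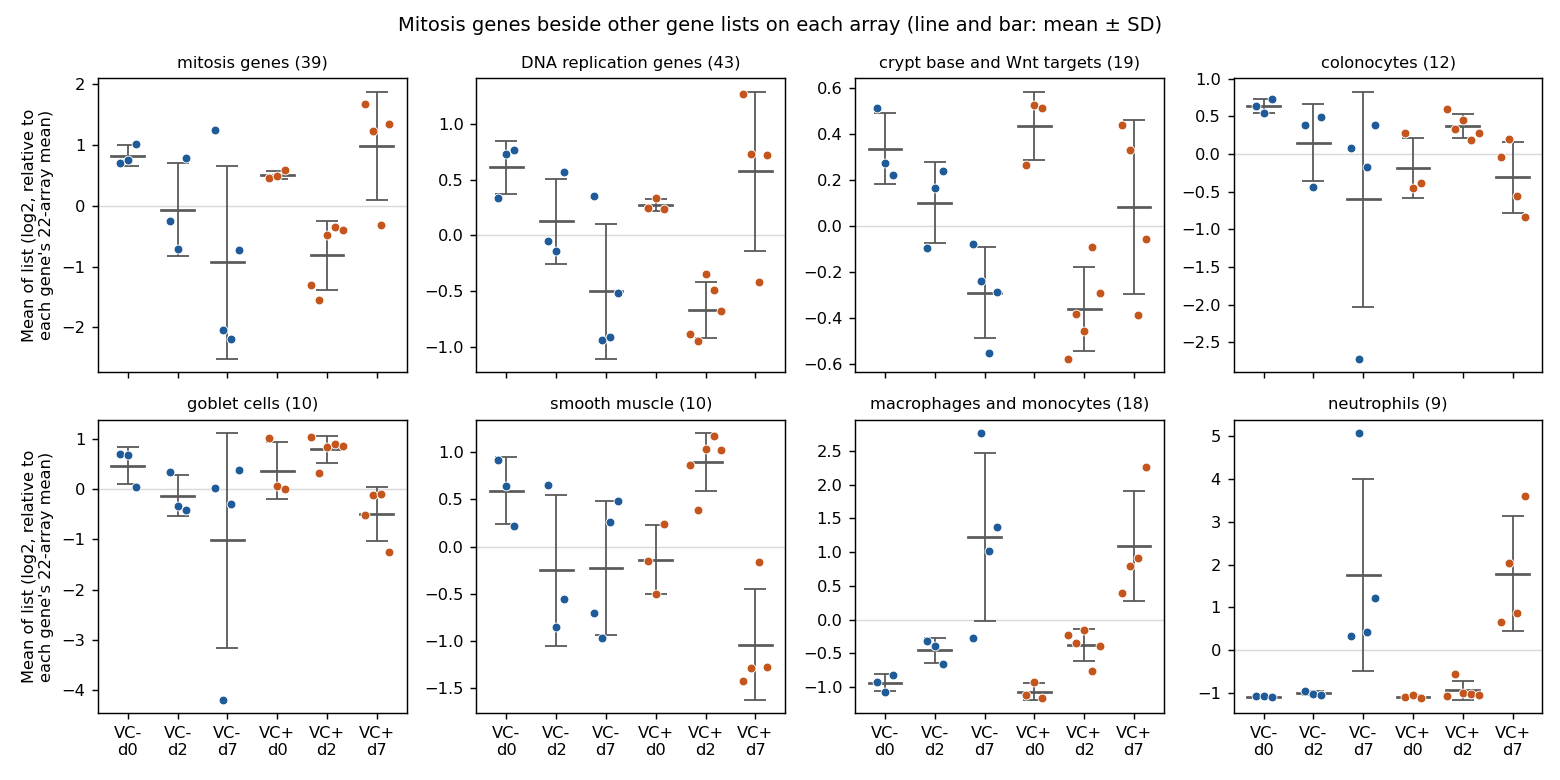
Mean of 8 gene lists on each array (log2, each gene relative to its mean over 22 arrays; number of genes in brackets), by genotype and day, with the group mean ± SD and a separate axis per panel. DNA replication genes split the day 7 groups as the mitosis genes do, the means of the neutrophil and macrophage lists are higher at day 7 than earlier in both genotypes, and the smooth muscle list is lowest on 3 of 4 VC+ day 7 arrays.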

How the data were processed

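Colonic RNA of 22 samples was hybridised to Affymetrix mouse expression arrays. The deposited table holds log2 signals of 45101 probe sets that the authors normalized with GCRMA (the submitters' processing notes also name R 2.10.1 and limma). This adjusts background by probe sequence and gives the probe signals of all arrays the same distribution before they are combined into probe sets. That step can hide a change shared by most genes. Values ran from 0.58 to 16.8, array medians from 3.41 to 3.55, and 41.7% of values lay below 3. The number of arrays limits the precision.

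Probe sets annotated to 1 gene (34958) gave 18194 genes, each by its probe set of largest interquartile range. The upper 50% by that range (9097) entered 1 linear model of 6 group means over all arrays (limma 3.58.1, R 4.3.3), and two-sided p-values were adjusted within each comparison (Benjamini-Hochberg, threshold 0.05). The fit was tested on simulated data, in which genes varied independently and each with the same spread in all groups. That test does not cover the correlation between genes and the unequal spread of the groups in these data. Tables were made with Python 3.11.15. The members and lists were chosen with earlier results of these data known. Described array by array were the genes of highest mean signal in each class by the probe sets used, Mki67, Cdk1 and up to 10 called members of largest change per comparison (Espl1 and Ndc80 in the last were added after their values were seen), and at most 4 called genes of each other list were named. T cell (2 tested) and B and plasma cell markers (6 tested) gave 1 call, a T cell marker that fell from day 2 to day 7 in VC- mice (2.15% of all genes tested were called lower there). Alternatives changed the filter, probe set, arrays, weights, normalization, covariates and block.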

Additional observations from a re-analysis of the deposited data

Results flagged for a closer look

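In 7 of 138 groups of 4 or 5 arrays tested for a single array apart from the rest, 1 array stood apart by Dixon's criterion, and chance alone flags about 6.9 of 138. Of the 7, 3 were on VC- day 7 replicate 1. There Ttk, the checkpoint kinase Mps1, had a log2 signal of 5.10 against 2.31 to 2.36 on the other arrays of its group, Bub1b had 4.39 against 1.73 to 1.77, and Ndc80 had 3.92 against 2.48 to 2.56. In the probe sets used for these 3 genes the other arrays of the group lay at the background. Another probe set of Bub1b had a mean of 5.03 over all arrays. Another 3 were on VC+ day 7 replicate 3, where Cenpe had 5.86 against 8.06 to 8.40, Racgap1 had 6.43 against 7.90 to 8.19, and the mean of the anaphase class was -0.17 against 1.24 to 1.49. The last was Ttk on VC+ day 2 replicate 4, with 3.42 against 2.33 to 2.56.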

How the results depend on the processing

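The median log2 difference of the 39 genes kept its sign in all 330 values that the alternatives gave over 11 comparisons, whereas the counts of called genes did not hold. The 7 genes called from day 0 to day 7 in VC- mice became 0 with no filter, 3 with a low value filter, 4 with the mean of all probe sets, 0 when only the arrays compared were fitted, 32 with array weights, 4 with quantile normalization, and 0 without the arrays of high Prss2, with Hoxb13 as a covariate or with only arrays without Xist. The 12 called from day 2 to day 7 in VC+ mice became 3 with no filter, 28 with only the groups compared, 39 with array weights, 3 without the arrays of high Prss2, 4 with Hoxb13 and 0 with only arrays without Xist. Where 0 genes were called, 4 were with only the groups compared and 21 with array weights from day 0 to day 2 in VC+ mice, and with array weights 4 from day 0 to day 7 in VC+ mice, 39 between genotypes at day 7 and 31 in the day 7 interaction. Array weights gave VC- day 7 replicate 2 the lowest weight, 0.09. Leaving out each array in turn gave 0 to 36, 0 to 34, 0 to 20 (day 2 to day 7, VC-), 0 to 39 (genotypes, day 7) and 0 to 3 (interaction, day 7) called genes. With a replicate block the first 2 counts were 0 and 6. The replicate numbers were not taken as pairs, since the labels do not say what they share and the correlation of deviations passed 0.1 in 18 of 48 pairs of the same number and not in all. They may still share something, as a hint from the data and not from the design: that correlation averaged 0.084, against -0.027 in the 152 other pairs, and the closest array of another group carried the same number for 13 of 22 arrays. No named gene reversed its direction past the threshold. The causes of these changes were not tested.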
